A study of Mus musculus with 6 samples.

Results

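The Schlafen genes examined here were Slfn1, Slfn2, Slfn3, Slfn4, Slfn5, Slfn8 and Slfn9, and their accessible sites were taken as the ATAC-seq peaks that carry exactly one of these 7 names in the table of all peaks. This gave 5 of 123510 peaks, which carried the names of 4 of the genes: 2 peaks for Slfn2 and 1 each for Slfn9, Slfn1 and Slfn3. No peak was named Slfn4, Slfn5 or Slfn8. In ATAC-seq a transposase cuts and tags open DNA, so the number of reads in a peak measures how accessible that stretch of chromatin was. Libraries were made from nuclei of whole small intestinal crypts of male C57BL/6 mice, with 3 libraries from wild-type mice (WT1 to WT3) and 3 from mice with a Villin-Cre deletion of Smarcad1 (KO1 to KO3). Villin drives the Cre recombinase in the intestinal epithelium, where it removes Smarcad1 exons flanked by loxP sites, and the floxed mouse line came from a single targeted clone of embryonic stem cells. Ages are not in the labels, which also do not say whether the WT mice carried floxed alleles or that each library came from a different mouse, so the p-values measure the spread between these libraries, which may be technical in part.

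Schlafen proteins are AAA-domain proteins that are induced by interferons and act in growth control of lymphocytes and myeloid cells and in antiviral defence. The mouse family falls into a short form (Slfn1 and Slfn2), an intermediate form (Slfn3 and Slfn4) and a long form with a helicase-like end (Slfn5, Slfn8 and Slfn9). Slfn2 keeps T lymphocytes quiescent, Slfn1 slows T lymphocyte growth when overexpressed, Slfn3 has been linked to differentiation of gut epithelial cells, and Slfn4 is best known from activated macrophages and other myeloid cells. In its separate RNA data, the study lists Slfn4 among genes repeatedly raised in gut epithelium or organoids after Smarcad1 deletion. The ATAC-seq libraries used here do not measure RNA. Smarcad1 is a chromatin remodeler that helps to maintain heterochromatin. The comparison of KO with WT asks whether accessibility in the cluster differs when Smarcad1 is deleted.

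All 7 genes lie side by side on chromosome 11 (GRCm38), from 82951349 at the first base of Slfn5 to 83215154 at the last base of Slfn3. In between lie Slfn9 (82978390 to 82991830, minus strand), Slfn8 (83002158 to 83020810, minus strand), Slfn2 (83065112 to 83070678), Slfn1 (83116849 to 83122670) and Slfn4 (83175186 to 83190216), the last 3 on the plus strand like Slfn5 and Slfn3. The peak named Slfn9 (82990051 to 82992300) covered the start of Slfn9 at its 5′ end, over untranslated exon sequence. The first Slfn2 peak (83063101 to 83064300) lay 812 bp from the start of Slfn2. The file calls it downstream, but Slfn2 is on the plus strand and the peak lies before its start, in intergenic sequence. The second Slfn2 peak (83066701 to 83067750) began 1589 bp into the gene, in its intron, where the antisense RNA Gm20234 also runs. The Slfn1 peak (83118001 to 83118600) was intronic and began 1152 bp after the gene start. The Slfn3 peak (83192101 to 83192400) was also intronic, 771 bp after the start. Of the 4 genes with a peak, only Slfn9 therefore had one over its own start in this table.

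Of the genes without a peak of their name, Slfn5 was a case of naming. A peak from 82951951 to 82953000 covered the RefSeq start and an untranslated exon of Slfn5, but it carried the name 1700003F17Rik, an antisense RNA that overlaps Slfn5 and is called Slfn5os in the GENCODE annotation. It is described below beside the members without being counted among them. For Slfn4, the nearest peak was the Slfn3 peak, which lies within 5 kb of the end of Slfn4. For Slfn8, no peak lay within 5 kb of the gene. A median of 2 peaks shared a name among the 18004 genes named by a peak, and 42.1% of these genes had a single one. Of all protein-coding genes in the annotation, 71.1% were named by a peak.

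**Figure D1:**
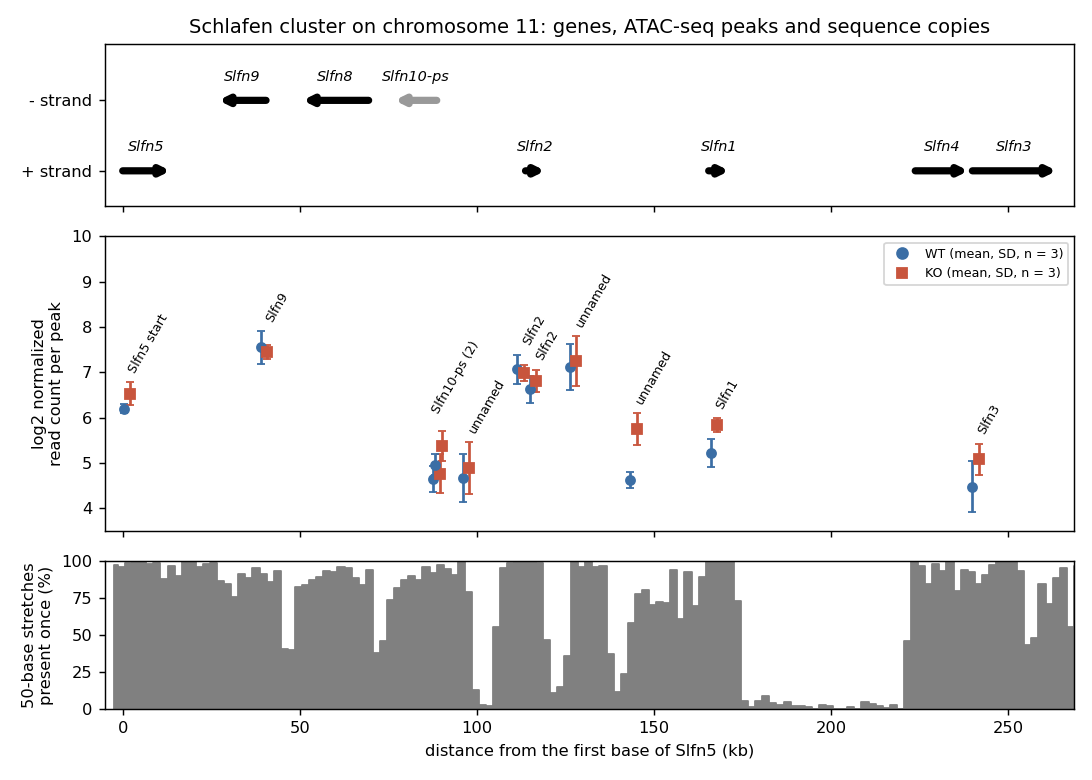
The Schlafen cluster along chromosome 11, with distance from the first base of Slfn5 in kb on the x axis. The top panel shows genes as arrows (members black, the pseudogene Slfn10-ps grey), the middle panel the log2 normalized read count of each of the 11 peaks as mean and SD of 3 WT (blue circles) and 3 KO (red squares) libraries, and the bottom panel the share of 50-base stretches that occur once in the genome in bins of 2 kb. No peak lies in the repeated stretch between Slfn1 and Slfn4.

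The sequences before the gene starts were searched for letters that interferon-activated and other factors recognise, at members with and without a peak over the start. The 250 bases before the RefSeq start (GRCm38.p6) are given 5′ to 3′ on the strand of the gene, for the 2 starts that lay in a peak (Slfn5 and Slfn9) and for Slfn8 and Slfn4, which had none. Capitals mark matches on either strand to GAAA, any 2 bases, GAAA (the core of the interferon-stimulated response element, ISRE) or to TGANTCA (AP-1).
Slfn5, plus strand, chr11:82951852-82952101: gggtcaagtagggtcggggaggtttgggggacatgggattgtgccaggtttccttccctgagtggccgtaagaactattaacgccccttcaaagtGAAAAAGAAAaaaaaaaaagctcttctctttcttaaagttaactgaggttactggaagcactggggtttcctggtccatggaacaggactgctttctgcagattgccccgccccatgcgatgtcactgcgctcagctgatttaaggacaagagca
Slfn9, minus strand, chr11:82991831-82992080: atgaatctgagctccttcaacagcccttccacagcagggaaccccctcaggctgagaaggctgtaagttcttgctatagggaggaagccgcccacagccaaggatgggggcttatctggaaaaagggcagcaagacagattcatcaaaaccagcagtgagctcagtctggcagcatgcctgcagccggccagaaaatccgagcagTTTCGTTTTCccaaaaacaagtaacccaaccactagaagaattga
Slfn8, minus strand, chr11:83020811-83021060: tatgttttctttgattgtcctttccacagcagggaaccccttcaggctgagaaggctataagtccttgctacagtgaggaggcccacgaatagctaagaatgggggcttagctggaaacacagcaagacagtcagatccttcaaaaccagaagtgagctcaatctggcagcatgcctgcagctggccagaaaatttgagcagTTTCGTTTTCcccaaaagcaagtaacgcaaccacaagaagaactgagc
Slfn4, plus strand, chr11:83174936-83175185: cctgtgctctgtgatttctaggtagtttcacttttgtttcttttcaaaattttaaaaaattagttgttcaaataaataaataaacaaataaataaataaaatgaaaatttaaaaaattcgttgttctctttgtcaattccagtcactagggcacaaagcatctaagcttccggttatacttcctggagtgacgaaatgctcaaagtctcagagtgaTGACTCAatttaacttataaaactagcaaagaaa

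An ISRE match began 155 bp before the start of Slfn5, 45 bp before that of Slfn9 and 48 bp before that of Slfn8. These 3 long-form genes were the only members with one. Slfn8 has another RefSeq start, not shown, and the same match begins 136 bp before it. The same letters were found in 2.98% of 32851 RefSeq promoters of the same length. The Slfn4 promoter held TGANTCA 34 bp before the start, a match present in 6.75% of promoters. The Slfn2 promoter held CAAAGTCCA, the HNF4 motif, 159 bp before the start (0.384% of promoters). No match to these 3 motifs or to TTCNNNGAA, the gamma-activated site (7.02% of promoters), was found before Slfn1 and Slfn3. Thus an ISRE match stood both at starts with a peak (Slfn5, Slfn9) and at one without (Slfn8). These are matches of letters only.

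The intronic Slfn1 and Slfn3 peaks were the members with the largest differences between KO and WT, and the middle 300 bases of each are shown, in which none of the 4 motifs occurred on either strand. The middle 300 bases of both Slfn2 peaks held none of the 4 motifs either. In the Slfn9 peak this window held an ISRE match, as did 3.02% of all peaks. The other 3 motifs are also absent from most peaks, with shares of 7.81% (gamma-activated site), 11.6% (AP-1) and 1.31% (HNF4).
Slfn1 peak, plus strand, chr11:83118151-83118450: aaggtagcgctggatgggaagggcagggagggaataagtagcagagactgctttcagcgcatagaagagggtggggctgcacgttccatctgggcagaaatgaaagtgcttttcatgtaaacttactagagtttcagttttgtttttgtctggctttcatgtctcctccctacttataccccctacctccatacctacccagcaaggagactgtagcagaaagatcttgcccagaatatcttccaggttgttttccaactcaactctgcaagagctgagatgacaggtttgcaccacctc
Slfn3 peak, plus strand, chr11:83192101-83192400: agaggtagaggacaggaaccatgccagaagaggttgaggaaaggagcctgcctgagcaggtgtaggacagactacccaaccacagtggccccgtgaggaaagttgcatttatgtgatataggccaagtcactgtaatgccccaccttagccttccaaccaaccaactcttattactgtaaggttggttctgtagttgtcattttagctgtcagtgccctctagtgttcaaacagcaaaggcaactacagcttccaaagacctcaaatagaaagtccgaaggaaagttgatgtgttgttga

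Copies of sequence within the cluster limit where reads can be placed, because the authors kept reads with a mapping quality of at least 20. Across the cluster, 67.2% of all 50-base stretches, the length of a read, occurred once in the genome. In the interval between the end of Slfn1 and the start of Slfn4 this was 11.3%, and 88.3% occurred again within the cluster. That interval falls in the longest stretch without a peak (73.5 kb, from 83118601 to 83192100). The starts of the genes without a named peak were not of this kind. Within 1 kb of the start, 99.9% of stretches occurred once for Slfn4, 97.9% for Slfn5 and 93.2% for Slfn8. In the peaks of Slfn1, Slfn2 and Slfn3 all stretches occurred once, and 92.4% did in the Slfn9 peak. The libraries were sequenced as read pairs. A mate in unique sequence may place a read from a repeated stretch, which these shares do not take into account. How far unplaced reads lowered the signal was not tested.

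None of the 4 peaks named for Smarcad1 lay over the span of its deleted exons (12 to 14), so these peaks give no check of the exon deletion. The loxP sites lie in the flanking introns, and the deleted parts of those introns were not searched. Depth differed between the libraries, with 4339306 to 16301164 reads in peaks. The deposited log2 values had been brought to the depth of WT3, the deepest library, so that 1 read counted as 1.00 in WT3 and as 3.99 in KO3 on the linear scale. On the first principal component of all peaks, WT2 and KO2 had the highest values (116.3 and 116.5), and the Schlafen differences are also given without both. Both number 3 libraries had the lowest values, -138.7 in KO3 and -77.6 in WT3. KO3 had the fewest reads in peaks and WT3 the most. KO1 (6.38) and WT1 (-22.8) lay in between. This component held 49.4% of the variance. Among marker lists, epithelial genes had the highest summed log2 signal (12.9 to 13.3 in WT and 12.8 to 13.5 in KO), over 23 peaks named for 6 of 8 genes, while no peak lay within 5 kb of the defining markers Epcam and Vil1. T lymphocyte and other leukocyte genes summed to 9.55 to 9.86 in WT and 9.48 to 9.89 in KO, with named peaks for 4 of 9 genes. No peak lay within 5 kb of Cd3e, Cd8a, Gzma or Gzmb. Macrophage genes (2 of 4 named) summed to 8.50 to 8.82 and 8.62 to 8.72. This sum leaves out Adgre1, a defining macrophage marker, because its 9 peaks carry its older name, Emr1. Cd79b, the one B lymphocyte gene of 3 with a named peak, lay at 6.37 to 6.55 in WT and 6.58 to 6.77 in KO. Crypt base stem cell genes (3 of 4) summed to 10.9 to 11.8 and 11.02 to 11.9, and stromal and endothelial genes (6 of 6) to 10.4 to 10.5 in both groups. The lists held 23 epithelial, 17 stem cell, 20 stromal and endothelial, 10 leukocyte, 5 macrophage and 1 B lymphocyte peaks. A sum rises with the number of peaks, so the sums do not rank cell types by amount. No gene of these lists passed the limma threshold, and their part in the Schlafen values was not tested. In whole crypts, a change in the number of cells of a type and a change of accessibility per cell cannot be told apart.

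In WT, Slfn2 and Slfn9 held the strong peaks of the family and Slfn1 and Slfn3 the weak ones. On the log2 scale of reads per peak, the Slfn9 peak had 7.55 ± 0.358 (SD, n = 3), higher than 85.7% of all peaks. The upstream Slfn2 peak had 7.07 ± 0.319 and the intronic Slfn2 peak 6.63 ± 0.303. The Slfn1 peak had 5.22 ± 0.302, above 27.1% of all peaks, and the Slfn3 peak 4.48 ± 0.560, above 0.917%. The median over all peaks was 5.79. These peaks also differ in width, from 300 bp (Slfn3) to 2250 bp (Slfn9).

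Per kb of peak on the linear scale, the order of the members changed. The upstream Slfn2 peak was densest with 114.1 ± 26.4 normalized reads per kb (SD, n = 3), followed by the intronic Slfn2 peak with 95.6 ± 19.5 and the Slfn9 peak with 85.3 ± 21.4. The Slfn3 peak had 78.5 ± 32.9 and the Slfn1 peak 63.1 ± 13.6, which was above only 2.08% of all peaks. The ranges of neighbours in this order overlapped over the 3 WT libraries, although within each WT library the upstream Slfn2 peak was denser than the intronic one, and that one denser than the Slfn9 peak. The upstream Slfn2 peak, at 95.02 or more, and the Slfn1 peak, at 78.3 or less, did not overlap. The median of all peaks was 88.2 per kb, so 2 of the 5 members lay above it. The peak at the Slfn5 start had 70.2 ± 4.53 per kb.

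None of the 5 Schlafen peaks differed between KO and WT by limma over all peaks, where 0 of 123510 peaks (0%) passed an adjusted p-value of 0.05. This lack of calls holds for the main fit, with all libraries taken as unpaired, and does not show that no site changed. With the replicate number as a block, limma called 272 of all peaks on the same values. The study, which tested read counts by edgeR, did report sites of changed accessibility, most of them more open in KO. The reason for this difference in calls was not tested. The Slfn1 peak was the one member with an unadjusted p-value below 0.05 (2.28% of all peaks) and the one in which all KO values lay above all WT values (2.7% of all peaks). None of the 5 had all KO values below all WT values (4.1% of all peaks). The Slfn9 and Slfn2 peaks differed by less than the spread between libraries. By limma voom on recovered reads 0 of the 5 were called, but how many of all peaks voom called was not counted. Without WT2 and KO2, limma called 143 of all peaks and 0 of the 5. The differences were then 0.56 at Slfn1, 0.78 at Slfn3, -0.26 at Slfn9, and -0.21 and 0.16 at the Slfn2 peaks.

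At the start of Slfn9, a long-form gene, the log2 values were 7.51, 7.22 and 7.93 in WT1 to WT3 and 7.31, 7.41 and 7.61 in KO1 to KO3, from 49 to 244 reads per library. The groups overlapped, with both the highest and the lowest library in WT. The KO minus WT difference was -0.11, with a 95% confidence interval of -0.73 to 0.52 and a limma adjusted p-value of 1.00.

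At Slfn2, the short-form gene of T lymphocyte quiescence, the upstream peak had log2 values of 6.95, 6.83 and 7.43 in WT and 6.80, 6.995 and 7.17 in KO. The KO values again fell within the range of WT, apart from KO1 just below it, and the difference was -0.09 (95% confidence interval -0.68 to 0.51). The intronic peak had 6.67, 6.31 and 6.91 in WT and 6.96, 6.52 and 6.95 in KO. Here the number 2 library was the lowest of each group, and the difference of 0.18 (-0.41 to 0.77) was also within the spread. The limma adjusted p-value was 1.00 for both.

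At Slfn1, the other short-form gene, the intronic peak had log2 values of 5.14, 4.97 and 5.55 in WT and 5.82, 5.69 and 6.00 in KO. Every KO library was above every WT library, although WT3 and KO2 differed little. The values rested on 18, 17 and 47 reads in WT and 26, 36 and 16 reads in KO. The difference was 0.62 with a 95% confidence interval of 0.06 to 1.18, an unadjusted limma p-value of 0.0335 and an adjusted one of 1.00.

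At Slfn3, the intermediate-form gene next to Slfn4, the values were 4.14, 5.13 and 4.17 in WT and 4.71, 5.38 and 5.17 in KO, from 9 to 29 reads per library. WT2 lay above KO1, so the groups overlapped, and in each group the number 2 library was the highest. The difference was 0.60 (95% confidence interval -0.19 to 1.40), with a limma adjusted p-value of 1.00. This is about the size of the Slfn1 difference with a wider interval.

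**Figure D2:**
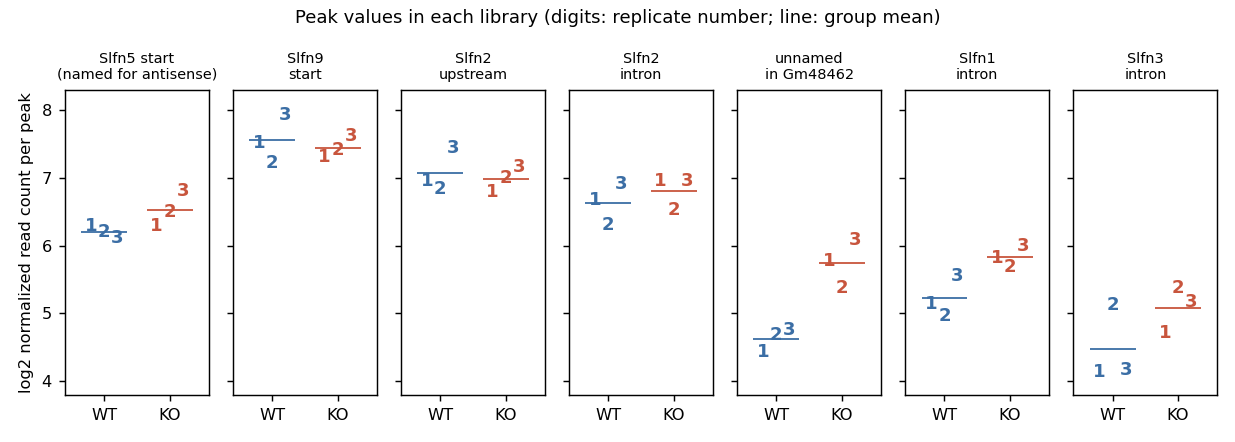
Log2 normalized read counts (y axis) of the 5 Schlafen peaks, the peak over the Slfn5 start and an unnamed peak in the cluster, for WT (blue) and KO (red). Each digit is a library, shown by its replicate number, and lines are group means. In the Slfn1 panel and the unnamed panel all KO libraries lie above all WT libraries.

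The peak over the start of Slfn5, a long-form gene, had log2 values of 6.29, 6.20 and 6.11 in WT and 6.29, 6.50 and 6.80 in KO. The lowest KO library was level with the highest WT library. The difference was 0.33 (95% confidence interval -0.22 to 0.88), with a limma adjusted p-value of 1.00. Without WT2 and KO2 it was 0.35.

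Summed over the peaks of each gene, none of the 4 genes differed by limma over the 18004 named genes, where 0% passed the adjusted threshold and 0.761% had an unadjusted p-value below 0.05. Only Slfn2 has more than one peak, so only its value is new. Its log2 sum was 7.82, 7.59 and 8.19 in WT and 7.88, 7.78 and 8.06 in KO, and the KO minus WT difference was 0.04 (95% confidence interval -0.47 to 0.54), or -0.036 without WT2 and KO2. Slfn1, with an unadjusted p-value of 0.0402 and an adjusted one of 1.00, was the single gene of the 4 below 0.05.

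The signal of the 5 peaks together was 8.85, 8.67 and 9.23 on the log2 scale in WT and 8.90, 8.92 and 9.14 in KO. The WT mean was 8.92 ± 0.286 and the KO mean 8.98 ± 0.132 (both SD, n = 3), with overlapping groups (difference 0.065, exact two-sided permutation p = 0.8, where 0.1 is the smallest p possible). Without WT2 and KO2 the difference was -0.024.

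The division of this signal between the genes does not depend on how libraries are scaled to each other by a single factor. Slfn1 took 7.66%, 7.66% and 7.81% of the family's signal in WT and 11.9%, 10.7% and 11.3% in KO. All KO shares of Slfn1 were thus above all WT shares. Slfn9 took 39.6%, 36.5% and 40.5% in WT and 33.3%, 35.3% and 34.8% in KO, with all KO shares below all WT shares. Slfn2 (45.4% to 49.3%) and Slfn3 (2.99% to 8.61%) overlapped between the groups. The shares sum to 100% in each library and are therefore tied to each other. No test was made on them, and how often such shares separate in other sets of peaks was not counted. The log2 values of Slfn9 themselves overlapped between the groups.

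**Figure D3:**
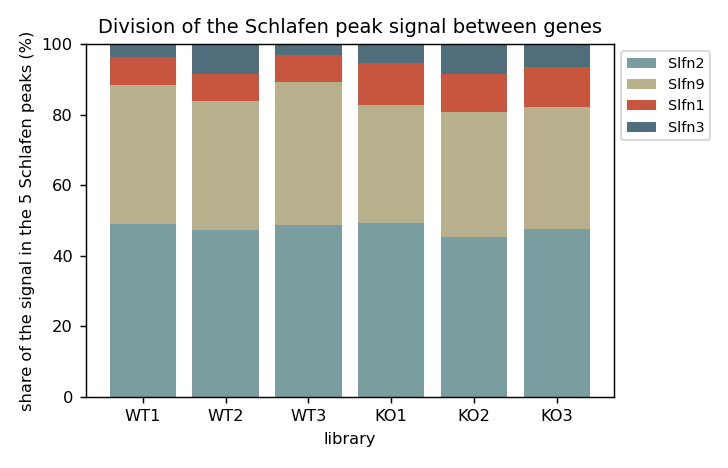
Share of the summed linear signal of the 5 Schlafen peaks (y axis, percent) held by each gene in each of the 6 libraries (x axis), with the 2 Slfn2 peaks combined. The Slfn1 segment is 7.66% to 7.81% in WT and 10.7% to 11.9% in KO.

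Between the outermost members lay 11 peaks in all, and the 6 that carry no member's name are given for context. The peak over the Slfn5 start is described above. One pair was named for the pseudogene Slfn10-ps, and 3 peaks were unnamed. The one with the largest difference in the cluster was unnamed, and it was picked with its values in view. It lay in an intron of the long noncoding RNA Gm48462 (83095351 to 83095800), between Slfn2 and Slfn1. Its log2 values were 4.43, 4.69 and 4.75 in WT and 5.77, 5.38 and 6.08 in KO, so that each KO library was well above each WT library, on 11 to 29 reads per library. The difference was 1.12 (95% confidence interval 0.50 to 1.74), with an unadjusted limma p-value of 0.00156 and an adjusted one of 1.00. Leaving out WT2 and KO2 gave 1.33 (limma adjusted p-value 0.121). Together with Slfn1, 2 of the 11 peaks had all KO values above all WT values, against 2.7% of all peaks. The other peaks without a member's name had overlapping groups, with differences of 0.13 to 0.41.

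**Figure D4:**
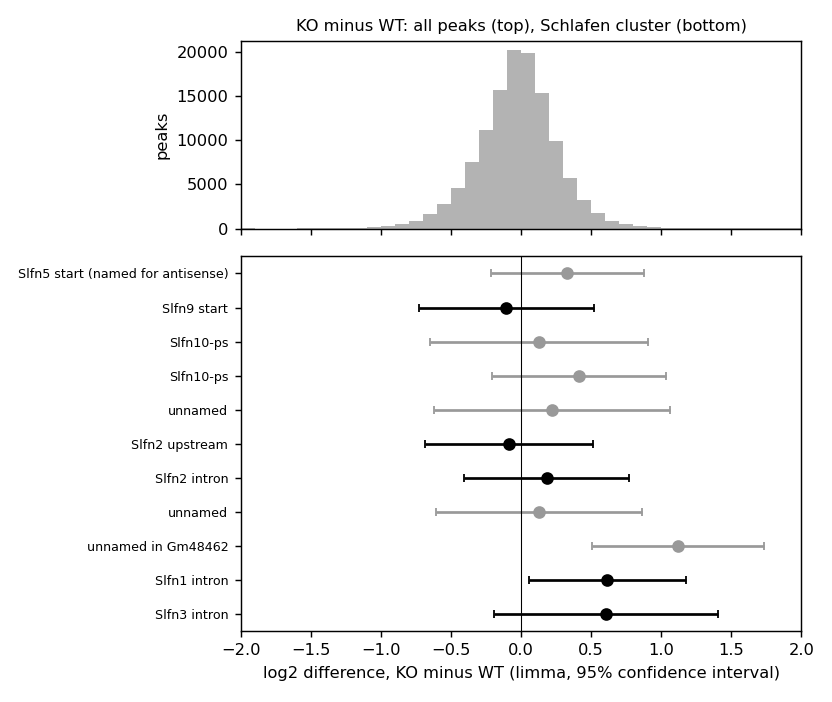
KO minus WT differences on the log2 scale (x axis). The top panel counts all 123510 peaks, and the bottom panel gives the 11 peaks of the cluster with limma 95% confidence intervals (black, Schlafen peaks; grey, other peaks). Of the Schlafen peaks, only the interval of Slfn1 excludes 0, from 0.06 to 1.18.

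Other genes of the interferon pathway, by which Schlafen genes are induced, were summarised from a list of 46 receptors, kinases, factors and induced genes. Peaks carried the names of 36 of them, and a peak under another name lay within 5 kb of 9 of the remaining 10. By limma over all named genes 0 of the 36 passed the threshold in either direction, and 0 had an unadjusted p-value below 0.05. The KO mean was higher in 25 of the 36 (55.3% of all genes), with a median difference of 0.05, against 0.02 over all genes. The largest difference was at Oas1a, an RNA sensor gene (0.68, from 5.86 ± 0.644 to 6.55 ± 0.362, SD, n = 3 each), and the lowest at Usp18, which removes the ubiquitin-like Isg15 (-0.15, from 9.53 ± 0.423 to 9.38 ± 0.537). All KO values lay above all WT values in 2 of the 36 genes, against 2.07% of all genes. These were Mx1, an antiviral GTPase (difference 0.46), and Oas3 (0.17), picked for this pattern. No gene of the list had all KO values below all WT values (1.27% of all genes). Differences of 0.62 at Slfn1 and 0.60 at Slfn3 lay between those of Mx1 and Oas1a.

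**Figure D5:**
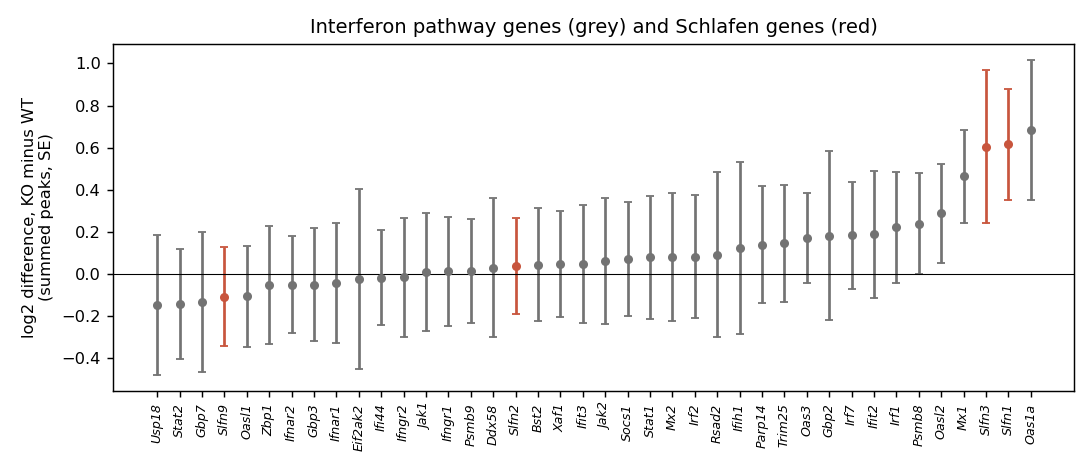
KO minus WT difference of the log2 summed peak signal (y axis, with limma SE) for 36 interferon pathway genes (grey) and 4 Schlafen genes (red), ordered by size along the x axis. Values run from -0.15 at Usp18 to 0.68 at Oas1a, and none passed the adjusted threshold.

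The genes whose pattern over the 6 libraries was most like that of the Schlafen family total were Lrch3, Gm14019 and Cox5b. Their centred log2 sums differed from it by a root mean square of 0.0397, 0.0406 and 0.0425, with a median of 0.230 over 18000 genes. Both patterns come from the same 6 libraries and carry the same differences in depth, so the likeness is a description only.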

How the data were processed

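Per the labels and the study's methods, the authors trimmed reads with Trim Galore (0.4.1), mapped them to GRCm38 with Bowtie2 (2.2.5), imported them into SeqMonk with duplicates removed, called a single set of MACS peaks (which libraries were pooled is not given in the sources used here) and named peaks by the closest gene within 5 kb. The deposited values are log2 read counts per peak, scaled by the authors to the largest library. A second table with the authors' edgeR results for KO against WT was not used. On the linear scale 100% of values were whole multiples (within 0.02 of a read) of 1 constant per library, which gave the reads. Counts cover counting error only, and any PCR copies left after duplicate removal would not be independent.

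The 5 Schlafen peaks were tested within a fit of all peaks by limma (3.58.1, R 4.3.3; lmFit, eBayes with trend, two-sided, Benjamini-Hochberg adjustment), with no covariate, pseudocount or filter. Unlike the study, which tested counts, limma was used because the deposited values are log2, and the recovered reads were tested by voom as an alternative. Linear values were summed per gene name, returned to log2 and fitted over all named genes in the same way. The family total was compared by an exact permutation test. Gene positions came from GENCODE vM21, and 50-base copies were counted on the assembled GRCm38 chromosomes. Promoters matched RefSeq for all 7 members. Members with every peak of their name were named, with the extremes of the interferon list and the 3 genes closest in pattern. The members, lists and tests were chosen with earlier results of these data known. Alternatives were other scalings (median, trimmed mean of M values, quantile, total), voom, a pseudocount of 5, a minimum mean of 20, a threshold of 0.1, the replicate block, other choices of peaks and each library left out. Leaving out both number 2 libraries was added after seeing the data.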

Additional observations from a re-analysis of the deposited data

How the results depend on the processing

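No Schlafen peak and no Schlafen gene was called by limma under any alternative run, and the lowest adjusted p-value for a member peak was 0.605 (Slfn1, with the replicate number as a block). The replicate block called 272 of all peaks, where the main fit called 0, and leaving out WT2 and KO2 together, an alternative added after seeing the data, called 143 peaks. Neither set held a member. Same-numbered libraries correlated at 0.04, 0.42 and 0.41 after subtracting group means. Whether libraries of one number share a source was not tested. The main fit took all libraries as unpaired because no pairing is described in the sources used here. Pairing by number left the family total at 0.065 (exact sign-flip permutation p = 0.75). The family total reversed to -0.024 without both number 2 libraries and ranged from -0.058 to 0.22 when 1 library was left out, with negative values without WT2 or KO3. The Slfn2 sum (0.04) reversed to -0.036 without both number 2 libraries and to -0.086 with its strongest peak alone, and ranged from -0.10 to 0.20 with 1 library left out. On the same basis Slfn9 ranged from -0.27 to 0.081 and the upstream Slfn2 peak from -0.21 to 0.094. The cause of these reversals was not tested. Slfn1 stayed positive throughout, at 0.49 to 0.78 with 1 library left out and at 0.55 to 0.63 otherwise, and Slfn3 at 0.44 to 0.93. The unnamed peak in Gm48462 had its lowest adjusted p-value, 0.0902, with the block, and values of 0.95 to 1.30 with 1 library left out. A minimum mean of 20 changed no value. Depth limits the weak peaks most, with 16 reads at Slfn1 and 9 at Slfn3 in KO3.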
